A study of Mus musculus with 8 samples.

Results

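Regions of the mouse genome that carried a peak of native Sox2 and a peak of Sox2BiD, and no peak of any of the other 6 Flag CUT&Tag libraries of the study, are described here. The 8 libraries came from mouse embryonic fibroblasts (MEFs) of OG2 mice, which carry a GFP reporter of Oct4, infected with retroviral vectors and collected at day 3 of reprogramming. The groups were Nanog, NanogBiD, Oct4, Oct4BiD, Sox2, Sox2BiD, Nr5a2 and Nr5a2BiD, with 1 library each. BiD is the N-terminal stretch of SS18 that binds BRG1, joined to the N-terminus of the factor, and which further factors the cells of a given library received is not given in the labels. The regions were selected on the peak calls themselves: peaks of the 8 lists sharing 1 bp or more were joined, and a region was kept when both Sox2 lists and none of the other 6 contributed to it. This gave 20296 regions of 306466 in all, 6.62% of the joined regions, and 41.03% of the 49469 regions that held peaks of both Sox2 libraries.

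With 1 library per group there is no test over samples, and every interval below covers counting error over regions and not the spread between cultures. The study's methods state that replicates were merged before peak calling, whereas its reporting summary states that the experiment was performed once. The lists hold no read totals, and those of the reporting summary were not used here to scale the peaks. By them native Sox2 was sequenced more deeply than Sox2BiD, although its list is the shorter. Native Sox2 had 58162 peaks, of which 35.0% lay in the 20296 regions, and Sox2BiD had 120594, of which 16.9% did. The lists hold no expression, so the fibroblast identity of the cells could not be checked against marker genes.

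Sox2 is a transcription factor of the SOX family, whose HMG box binds the minor groove of DNA and bends it at words of the type CATTGT or CTTTGT. It is a core regulator of pluripotent cells, where it often binds beside Oct4, and of neural progenitors, and it can engage sites packed in nucleosomes. SS18 is a subunit of the BAF (SWI/SNF) remodelling complex, whose ATPase BRG1 moves and evicts nucleosomes. In CUT&Tag an antibody, here against Flag, brings the transposase Tn5 to its target, which cuts and tags the DNA around it, and a peak is a stretch where such tags pile up. AP-1, a dimer of FOS and JUN proteins, and TEAD and RUNX factors are known for occupying distal elements of fibroblasts.

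The sequences around the summits of leading regions are printed first, since the words sought in them are what the comparisons of sequence rest on. Each line holds 101 bases of mm10, plus strand, centred on the highest summit of the region, and capitals mark the words CATTGT and CTTTGT, their 7-letter relatives CTATTGT and CTTTTGT, the 8-letter word CCATTGTT and the AP-1 word TGACTCA, on either strand. The first 7 lines are the 7 regions whose lower percentile of peak score within the Sox2 and Sox2BiD lists was highest, and they show how varied the sequence under strong peaks was. The next pair are the regions with CCATTGTT nearest Klf4 and Sox2, genes of reprogramming factors. The last pair are the highest-ranked region with the AP-1 word and neither 6-letter word, and the highest-ranked with both AP-1 and CATTGT. The last 4 were picked after their values were seen.
Tacr1, chr6:82313887-82313987: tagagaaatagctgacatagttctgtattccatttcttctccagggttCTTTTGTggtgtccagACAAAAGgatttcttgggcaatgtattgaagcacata
Map3k9, chr12:81816843-81816943: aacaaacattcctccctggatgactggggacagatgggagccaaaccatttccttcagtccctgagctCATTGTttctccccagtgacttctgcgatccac
Spock3, chr8:62969830-62969930: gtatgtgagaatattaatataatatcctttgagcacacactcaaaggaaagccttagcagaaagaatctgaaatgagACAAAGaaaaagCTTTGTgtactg
Bend5, chr4:111444178-111444278: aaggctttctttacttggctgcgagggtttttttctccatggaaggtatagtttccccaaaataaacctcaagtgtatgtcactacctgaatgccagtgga
Gfm1, chr3:67450823-67450923: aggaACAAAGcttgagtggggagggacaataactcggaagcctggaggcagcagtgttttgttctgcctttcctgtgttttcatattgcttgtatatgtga
Macc1, chr12:119333700-119333800: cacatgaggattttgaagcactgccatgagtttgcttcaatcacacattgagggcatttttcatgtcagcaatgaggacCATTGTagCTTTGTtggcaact
Cyp26b1, chr6:84693289-84693389: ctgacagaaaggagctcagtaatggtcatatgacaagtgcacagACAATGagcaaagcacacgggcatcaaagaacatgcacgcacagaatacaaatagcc
Klf4, chr4:55510437-55510537: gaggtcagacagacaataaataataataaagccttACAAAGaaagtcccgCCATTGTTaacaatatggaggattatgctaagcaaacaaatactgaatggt
Sox2, chr3:34560129-34560229: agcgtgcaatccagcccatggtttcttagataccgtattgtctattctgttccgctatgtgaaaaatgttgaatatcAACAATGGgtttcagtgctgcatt
Erbb4, chr1:68142568-68142668: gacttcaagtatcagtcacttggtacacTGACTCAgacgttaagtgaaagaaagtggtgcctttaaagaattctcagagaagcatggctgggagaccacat
Gm527, chr12:64701852-64701952: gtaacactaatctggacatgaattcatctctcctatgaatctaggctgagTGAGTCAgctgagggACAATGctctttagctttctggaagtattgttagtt

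The region ranked first lay between genes on chromosome 6, 88.4 kb from the nearest protein-coding start site, that of Tacr1, the receptor of substance P. It spanned chr6:82312403-82314825, with a score of 1196 in native Sox2 and 1286 in Sox2BiD and with 80 and 83 tags at the summits. The score is 10 times the negative log10 of the p-value of the peak caller. The window held none of the 6-letter words but held CTTTTGT on both strands, a pair facing each other. The regions nearest Map3k9, a kinase upstream of JNK, and Spock3, a proteoglycan of the extracellular matrix, followed, with scores of 1076 and 1157 and of 1071 and 1284 in native Sox2 and Sox2BiD, respectively. The Spock3 region was intronic and held a pair of CTTTGT words in opposite orientation. The Bend5 region, intronic too, scored 1049 and 1310 and held none of the marked words in the 101 bases. The region in an intron of Macc1 scored 1113 in native Sox2 and 1109 in Sox2BiD and held CATTGT and CTTTGT in the same orientation, 2 bases apart. The rank also took in 2 regions on chromosome 18 nearest Zfp608, a zinc finger gene, at 202.5 and 426.9 kb from its start site. The region nearest Cyp26b1, which clears retinoic acid, had its native and fused summits 707 bp apart, whereas the other 9 of the first 10 had them at most 97 bp apart.

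The values used by the rule varied widely among the 20296 regions. In native Sox2 the score ran from 50, the threshold of the caller, over a median of 132 to 1196, and the summit from 10 over a median of 22 to 96 tags. In Sox2BiD the score ran from 50 over a median of 246 to 1493, and the summit from 8 over a median of 28 to 112 tags. Set against all peaks of the same list, the median region stood at percentile 50.7 of native Sox2 and at percentile 69.6 of Sox2BiD. The regions were thus average by rank in the shorter list and in the upper part of the longer one. Across regions the 2 scores gave a Spearman correlation of 0.48, a description over 20296 regions of the same 2 libraries. The summit was higher in Sox2BiD in 12622 regions (62.2%), higher in native Sox2 in 6990 and equal in 684, on heights that are not scaled to depth. All but a few regions were simple, since 20142 held exactly 1 peak of each library. Their median width was 994 bp, and their summits lay a median of 37 bp apart, within 50 bp in 59.3% and within 100 bp in 79.8%.

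**Figure D1:**
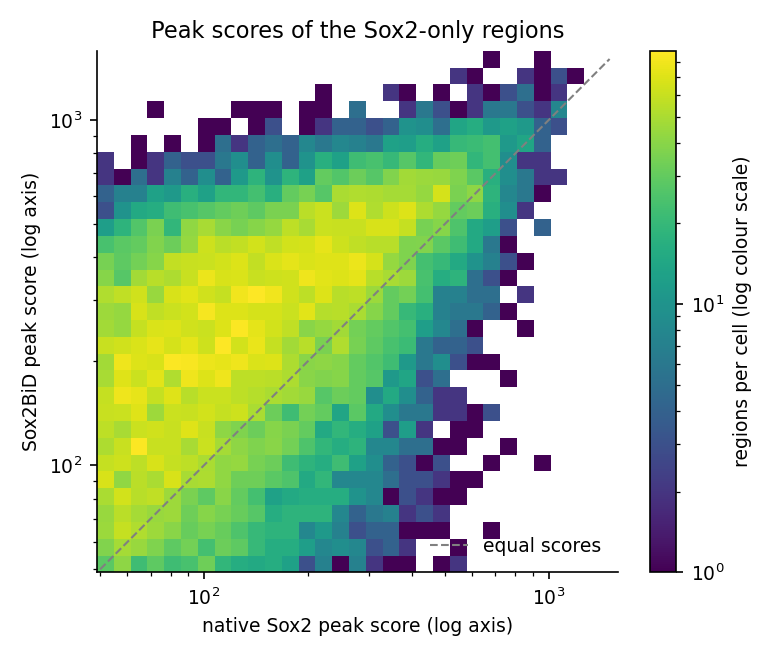
Peak score in native Sox2 (x axis) against Sox2BiD (y axis) for the Sox2-only regions on the placed chromosomes, both on log axes, with colour for the number of regions in each cell. Most cells lie above the dashed line of equal scores, as the medians of 132 and 246 do.

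At the edge of the rule, 1307 regions (6.44%) were kept with a lower score under 55, of which 1020 were near the threshold in native Sox2 and 316 in Sox2BiD. Just outside it were 5903 regions in which both Sox2 libraries were joined by exactly 1 other library. The peak of that library had a median score of 86.1 and scored under 55 in 626 of them (10.6%). Being free of the other 6 libraries did not mean being far from their peaks. The gap from a region to the nearest peak of any other library had a median of 2899 bp, and 493 regions (2.43%) lay within 100 bp of one. Of the single libraries Oct4BiD was the nearest, with a median gap of 8337 bp, and native Oct4 the farthest, at 14774 bp. These gaps were not scaled to the length of the lists. Native Oct4 had the shortest of the 6, with 54794 peaks, and Oct4BiD had 93978. Native Nr5a2, the longest with 108030, had a median gap of 10018 bp.

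SOX words were concentrated at the summits. CATTGT lay within 50 bp of the highest summit in 24.8% of the 20293 regions on placed chromosomes (95% interval 24.2 to 25.4) and in 6.47% of windows of the same length centred 500 bp to either side, an enrichment of 3.83 (3.664 to 4.001). The 8-letter word CCATTGTT, in which the core sits between C and T, was rarer and more enriched, at 2.97% (2.74 to 3.21) of summits and 0.490% of flanks, 6.05 times (5.16 to 7.10). Over all joined regions of the 8 libraries the 2 words lay at 11.1% and 1.28% of summits. The base before the core differed as well. It was C for 33.6% of 5666 cores at summits and for 23.4% of 2713 cores in flanks, and A for 17.5% and 29.6%, respectively.

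A ranking of all words put words of the same family first. Among 1410 words of 6 letters present in at least 2% of summit windows, CATTGT was the most enriched over the flanks and CTTTGT, at 33.6% of summits against 9.75% of flanks, the second. Among the 7-letter words CCTTTGT (5.86 times), CCATTGT (5.80 times) and CTATTGT (5.75 times) led, the AP-1 word TGACTCA was the fourth (5.43 times) and CTTTTGT the fifth (5.19 times). CTTTTGT was present at 15.01% of summits and in 2.89% of flanks. In total, 51.8% of regions held CATTGT or CTTTGT and 65.04% (64.4 to 65.7) held one of the 6-letter pair or of the 7-letter pair CTATTGT and CTTTTGT, against 15.7% and 19.2% of flanks and 29.2% of all joined regions for the set of 4. The 4 words were picked after the ranking had been seen. The other windows held none of them, like that of the Bend5 region.

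**Figure D2:**
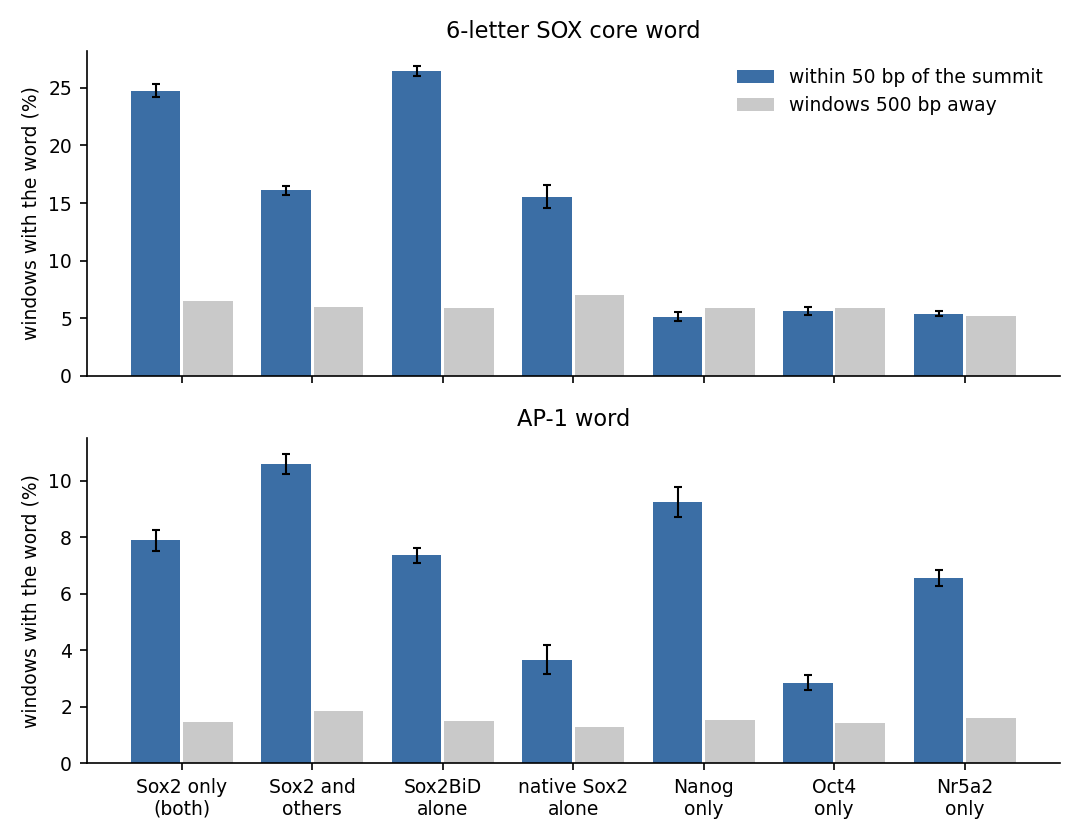
Share of windows with the 6-letter SOX core word (top) and the AP-1 word (bottom) within 50 bp of the highest summit (blue, with exact 95% intervals) and 500 bp to either side (grey), in 7 sets of regions. The SOX word stood well above the flanks in all 4 sets with a Sox2 library and near them in the sets of Nanog, Oct4 and Nr5a2, whereas the AP-1 word stood above the flanks in every set.

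Compared with the other regions of both Sox2 libraries, those with a peak of at least 1 further library, the Sox2-only regions held SOX words more often. CATTGT was at 24.8% of their summits and at 16.1% (15.7 to 16.5) of the 29171 others, a ratio of 1.54 (1.49 to 1.60). For CCATTGTT the ratio was 1.52 (1.36 to 1.70), and for CTATTGT it was 2.055 (1.91 to 2.22). CTATTGT had been picked from the ranking in the Sox2-only regions themselves. The highest summit of a shared region can belong to another library. When the native Sox2 summit was used in both sets, the CCATTGTT ratio was 1.44, and at the Sox2BiD summit it was 1.26, with a lower bound of 1.13. The shared regions were stronger by score, with medians of 158 in native Sox2 and 306 in Sox2BiD, so the higher share of SOX words went with lower scores.

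The contrast with regions of the other factors was larger. CATTGT was at 5.12% of summits in 11593 regions of both Nanog libraries only, at 5.595% in 15425 of both Oct4 libraries only and at 5.39% in 30809 of both Nr5a2 libraries only, and the flanks of these sets were at 5.15 to 5.88%. CCATTGTT was 10.8 times as frequent in the Sox2-only regions as in the Nanog set, 16.3 times the Oct4 set and 14.3 times the Nr5a2 set. In each of the Nanog, Oct4 and Nr5a2 sets it was less frequent at the summit than in the flanks. For the Nanog set the interval of summit over flanks, 0.480 to 1.08, included 1. Each factor showed a like pattern for its own word. The ratio between its exclusive and its shared regions was 2.09 (1.84 to 2.38) for the NANOG word in Nanog regions, 1.89 (1.75 to 2.04) for the octamer ATGCAAAT in Oct4 regions and 2.31 (2.18 to 2.44) for the NR5A word in Nr5a2 regions. With 1.52, the ratio of CCATTGTT was the smallest of the 4. All 4 were taken at the highest summit of any library. Those of Nanog, Oct4 and Nr5a2 were not repeated at the factor's own summits.

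The regions seen by 1 form of Sox2 alone fell on either side. The 38895 regions of Sox2BiD alone held CCATTGTT at 4.60% of summits (4.39 to 4.81), more often than the regions of both forms, whose share was 0.645 times that value (0.589 to 0.706). For CATTGT the difference was small, with 26.4% for Sox2BiD alone and a ratio of 0.937 (0.910 to 0.964). The 5406 regions of native Sox2 alone held CCATTGTT at only 0.758% of summits and CATTGT at 15.5%, and the regions of both forms held these words 3.91 (2.86 to 5.36) and 1.59 (1.49 to 1.70) times as often. That set is small, since 49469 of the 57225 regions with a native Sox2 peak also held a Sox2BiD peak.

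Sorted by the number of further libraries, the regions of both Sox2 libraries changed step by step in their SOX words. Words were sought at the highest summit of any library, which in regions with further libraries can belong to another factor. The steps were not repeated at the Sox2 summits. The share with CATTGT was 24.8% with no other library, 21.0% with 1, 19.0% with 2, 15.6% with 3, 14.96% with 4, 11.8% with 5 and 7.66% with all 6. The intervals of neighbouring steps did not overlap except between 3 and 4. The share of summits within 2 kb of an annotated start site went the other way, from 8.51% over 13.7% with 4 further libraries to 66.0% with 6. The AP-1 word had its highest share in the middle, at 12.8% with 4 further libraries, and was at 7.89% without any and 6.13% with all 6.

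**Figure D3:**
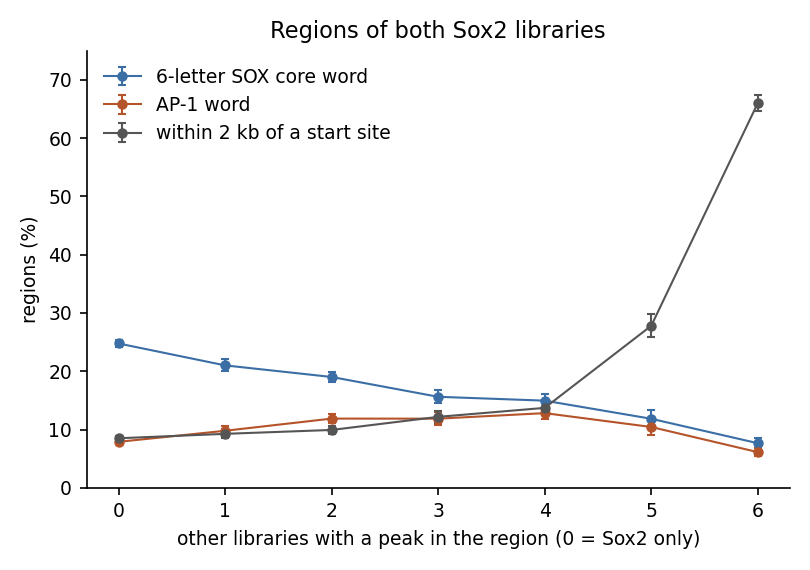
Share of regions of both Sox2 libraries (y axis, percent, exact 95% intervals) with the SOX core word, with the AP-1 word or within 2 kb of a start site, by the number of other libraries with a peak in the region (x axis). The Sox2-only regions at 0 have the highest SOX share, 24.8%, and the lowest promoter share, 8.51%. Words and positions are those at the highest summit of any library.

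Fibroblast-type words were present in the Sox2-only regions too. The AP-1 word TGACTCA was at 7.89% of summits (7.53 to 8.27) and in 1.45% of flanks, 5.43 times, yet less often than at the other regions of both Sox2 libraries, which held it at 10.6%, a ratio of 0.745 (0.703 to 0.789). This held away from promoters, with a ratio of 0.672 (0.632 to 0.714). Within 2 kb of start sites it was turned round, at 1.30 (1.08 to 1.56), where 8.46% of the Sox2-only and 6.50% of the shared regions held the word. The word of TEAD, the partner of YAP, CATTCCA or CATTCCT, was at 7.92% of summits and in 3.81% of flanks, and that of RUNX, AACCACA, was at 4.33% and 2.36%. Both were less frequent than in the shared regions, with ratios of 0.854 (0.805 to 0.906) and 0.751 (0.693 to 0.813). The E-box CAGCTG was at 5.13% of summits and 3.44% of flanks, whereas CTTTGAT of LEF and TCF, which shares 5 letters with CTTTGT, did not stand above its flanks, at 2.015% and 1.961%, a ratio of 1.03 (0.913 to 1.156). The cyclic AMP response element TGACGTCA was in 19 regions and the NFI word in 6. The sets of the other factors lay on either side. The Nanog-only regions held the 3 words more often, with TEAD at 13.0% and RUNX at 11.02% of summits, and the ratio of the Sox2-only to the Nanog-only regions for AP-1 was 0.855 (0.794 to 0.920). The Oct4-only and Nr5a2-only regions held them less often. The ratios of the Sox2-only to the Oct4-only regions were 2.77 (2.50 to 3.08) for AP-1, 1.27 (1.17 to 1.37) for TEAD and 1.285 (1.155 to 1.43) for RUNX, and those to the Nr5a2-only regions 1.20, 1.31 and 1.79, with lower bounds of 1.13, 1.23 and 1.63. Against all joined regions that were not Sox2-only they were 1.25 (1.19 to 1.31), 1.12 (1.07 to 1.18) and 1.01 (0.944 to 1.08), so that the last did not separate the sets.

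Of the words of the other delivered factors, those of Oct4 and Nr5a2 were scarce, and that of NANOG stood somewhat above its flanks. The octamer ATGCAAAT was at 0.512% of summits and in 0.717% of flanks. The NR5A word, TCAAGGTCA with C also taken for either T, was at 0.291% and 0.761%. Both were under their flanks, and their shares were 0.329 (0.266 to 0.407) and 0.224 (0.170 to 0.294) times those of the shared regions. These ratios are tied to the rule, which left out every region with a peak of an Oct4 or Nr5a2 library. Against regions of Sox2BiD alone the ratios were 0.910 (0.721 to 1.149) and 0.694 (0.515 to 0.934). In Nanog-only regions both words were under their flanks too, at 0.423 and 0.431 times. In the Sox2-only regions the NANOG word GCCATTA was at 1.21% against 0.926% in flanks, 1.31 times (1.115 to 1.535), and at 1.26% over all joined regions. Its ratio to the shared regions was 0.991 (0.843 to 1.164), which did not separate the sets. The AT-rich homeodomain word TAATTA was at 1.24% of summits against 4.17% of flanks, under its flanks as well. The composite in which a SOX core precedes ATGCAA by 1 base, the layout known for joint binding of Oct4 and Sox2, was found in 8 regions (0.0394%, 0.0170 to 0.0777) and in 5 of the 29171 shared ones (0.0171%, 0.00557 to 0.0400). At these numbers the Sox2-only and the shared regions could not be told apart. Over all joined regions, the Sox2-only ones included, the composite was in 34 of 306426 (0.0111%, 0.00768 to 0.0155). That share lies under the interval of the Sox2-only regions, which rests on 8 regions. The CTCF word was in 7 regions, 0.280 times (0.124 to 0.628) its share in the shared regions.

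The AP-1 word was about as frequent with a SOX core as without one. It was in 7.74% (7.01 to 8.51) of regions with CATTGT and in 7.95% (7.52 to 8.39) of those without. In counts, 389 regions held both, 4638 CATTGT alone, 1213 AP-1 alone and 14053 neither. The SOX share also hardly differed with position, since CATTGT was at 23.4% (21.4 to 25.5) of the 1726 regions within 2 kb of a start site and at 24.9% (24.3 to 25.5) of the 18567 others. Among shared regions these shares were 11.1% and 17.4%.

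The position of the words relative to the summit differed between the 2 kinds. In bins of 25 bp, the AP-1 word was most frequent in the central bin, with 25.6 matches per 1000 regions around Sox2BiD summits and 24.9 around native Sox2 summits. CATTGT had a dip there. Around Sox2BiD summits it had 70.3 matches per 1000 regions in the central bin, and 80.9 and 83.6 in the bins centred 25 bp to either side. Around native summits the values were 58.9 in the centre and 71.8 and 74.9 beside it. At 500 bp the matches were at 14.98 to 17.64 per 1000 regions.

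**Figure D4:**
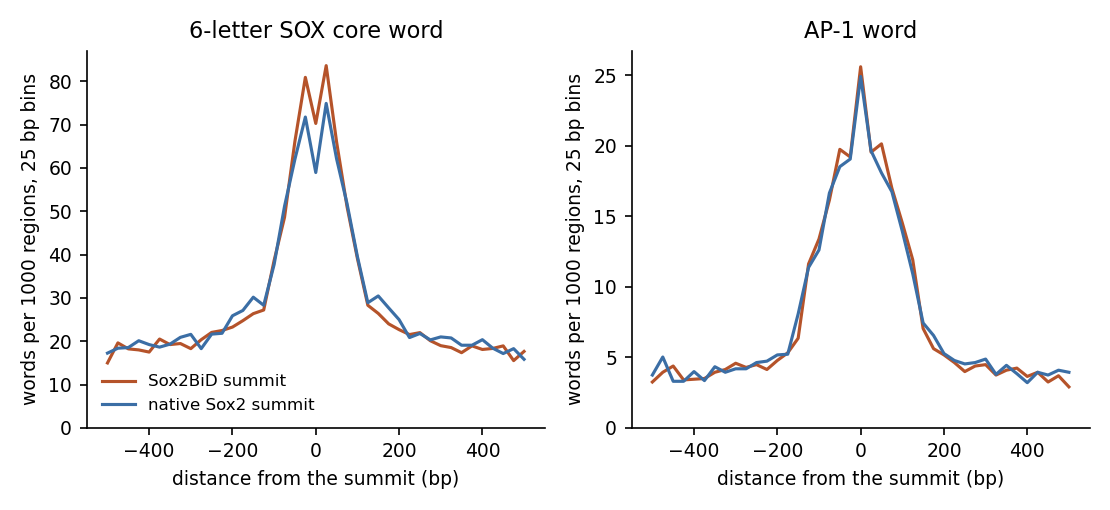
Matches of the SOX core word (left) and the AP-1 word (right) per 1000 Sox2-only regions in bins of 25 bp (y axis) by distance from the Sox2BiD or the native Sox2 summit (x axis). The SOX word has its maxima 25 bp to either side of the summit and the AP-1 word at the summit.

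SOX words lay near the summit of the fused form somewhat more often. In the same 20293 regions CATTGT lay within 50 bp of the Sox2BiD summit in 25.4% (24.8 to 26.0) and of the native summit in 23.0% (22.4 to 23.5). It lay near the Sox2BiD summit alone in 1845 regions and near the native summit alone in 1344, so that 57.9% (56.1 to 59.6) of the discordant regions were on the side of Sox2BiD. For CCATTGTT the discordant share was 61.8% (56.9 to 66.5). For the AP-1 word it was 51.99% (49.2 to 54.8), an interval that includes equal sides. The scores of both libraries chose the regions, and Sox2BiD had the taller summits by tags. Their part in this difference was not tested.

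Peak strength went with the SOX words differently in the 2 libraries. Ranked by Sox2BiD score in 10 equal groups, the share of regions with CATTGT was 19.5% (17.7 to 21.2) in the lowest, with a median score of 65.7, and 31.97% (29.9 to 34.1) in the highest, with a median of 672, a ratio of 1.64 (1.47 to 1.83). Ranked by native Sox2 score it was 25.3% (23.4 to 27.3) in the lowest group and 25.02% (23.1 to 27.0) in the highest, a ratio of 0.988 (0.889 to 1.10), and the groups between ran from 23.6% to 26.0%. For the 8-letter word CCATTGTT the directions were opposite. Its share was 2.12 times (1.47 to 3.06) as high in the highest as in the lowest group of Sox2BiD score, whereas by native score it went from 3.399% in the lowest to 2.315% in the highest, a ratio of 0.681 (0.473 to 0.982). The result for CATTGT was alike when the word was sought at the native summit instead. Then the ratio was 1.57 (1.403 to 1.751) by Sox2BiD score and 1.05 (0.942 to 1.17) by native score. Counts of words were also set against the scores. Regions with 0, 1, 2 and 3 or more of CATTGT and CTTTGT had median Sox2BiD scores of 218.5, 259, 301 and 356, and median native scores of 133, 132, 126.5 and 139. The AP-1 word went up with the Sox2BiD score, 1.35 times (1.07 to 1.70) between the lowest and the highest group, and down with the native score, 0.743 times (0.599 to 0.922). The scores decided membership, so these are descriptions of how the regions vary. The counts of words, and the shares of CCATTGTT and the AP-1 word by score, were taken at the highest summit only.

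**Figure D5:**
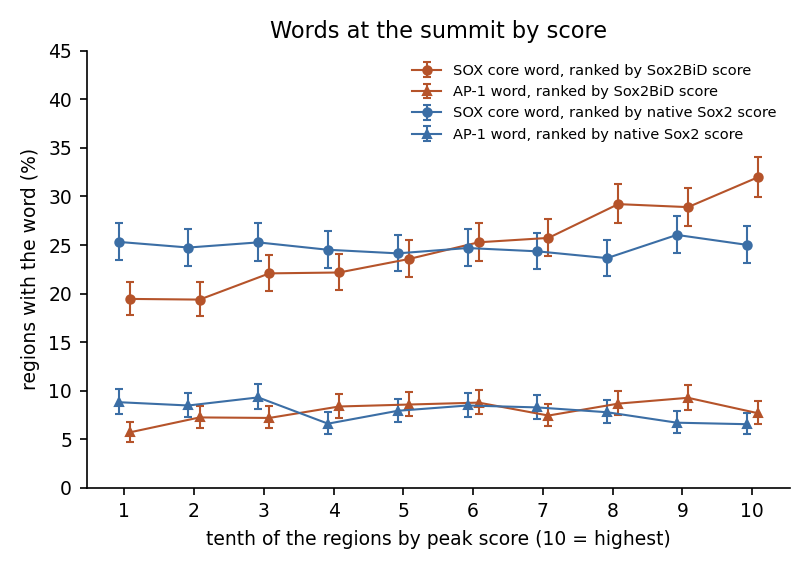
Share of Sox2-only regions with the SOX core word (circles) or the AP-1 word (triangles) within 50 bp of the highest summit (y axis, percent, exact 95% intervals) in 10 groups of rising Sox2BiD score (brown) or native Sox2 score (blue). The SOX share goes from 19.5% to 31.97% with the Sox2BiD score and stays between 23.6% and 26.0% with the native score.

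The Sox2-only regions were distal. Within 2 kb of an annotated start site lay 8.51% of their summits (8.13 to 8.90), whereas 10.7% of the bases of the placed chromosomes do, and 20.7% of the shared regions did, a ratio of 0.411 (0.391 to 0.433). The difference from the bases of the genome was not found when peaks were joined by summits within 100 bp, which gave a share of 10.7% (10.3 to 11.1). The difference from the shared regions stayed. The shares were 10.4% for Nanog-only, 9.57% for Oct4-only and 15.1% for Nr5a2-only regions. The ratios to these 3 sets were 0.820 (0.765 to 0.880), 0.889 (0.832 to 0.9497) and 0.565 (0.536 to 0.595). For regions of Sox2BiD alone the share was 11.3%, a ratio of 0.750 (0.712 to 0.791). Regions of native Sox2 alone were more distal still, with 7.58%, a ratio of 1.12 (1.01 to 1.24) and a median distance of 24889 bp. Outside promoters, introns held 43.6% of the Sox2-only summits, against 34.7% of bases, and intergenic sequence 45.2%, against 52.1% of bases. UTRs held 1.21% and coding exons 0.478%. The median distance to a start site was 18776 bp, against 11762 bp for the shared regions, and 9.81% lay more than 100 kb from any, against 5.43%. Their windows had a GC content of 40.3%, close to the 40.6% of their flanks, whereas the shared regions had 44.9%. The summit lay in a repeat in 13.0% (12.6 to 13.5) of the Sox2-only and 9.30% (8.97 to 9.64) of the shared regions. Over all joined regions this share was 15.3%, for Sox2BiD alone 17.2% and for native Sox2 alone 18.2%. The Nanog-only, Nr5a2-only and Oct4-only sets were at 9.07%, 13.0% and 26.3%.

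The regions were spread over the genome, with 4.60 to 8.97 per Mb on the autosomes and the X chromosome. The X chromosome had the fewest per Mb but the largest share, since 9.09% of its joined regions were Sox2-only, against 5.06% on chromosome 11 to 7.54% on chromosome 1 among autosomes. Of the X-linked regions with both Sox2 libraries, 54.5% were Sox2-only, while the autosomes ran from 34.9% to 44.9%. The median distance between neighbours was 70256 bp, and 3625 regions (17.9%) had another within 10 kb. The longest runs in steps of at most 10 kb were of 5 regions, at chr17:86119137-86136940 nearest Srbd1 and at chr4:102147219-102175296 nearest Pde4b, a phosphodiesterase of cyclic AMP.

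Of 21911 protein-coding genes, 14113 had such a region within 100 kb of a start site, which is 64.4%, with a median of 1 per gene. Any gene list is read against that share and against 6.46 regions per Mb of the windows of all these genes, since genes with many start sites have longer windows. The placed chromosomes as a whole held 7.45 regions per Mb. Sox6, an HMG-box factor of the SoxD group that acts in cartilage and glia, had the most regions of any gene. Its gene (ENSMUSG00000051910.13, chr7:115470872-116038796, minus strand) had 21 regions, 32.8 per Mb of its window, 19 of them inside the gene. Their native Sox2 scores ran from 51.3 over a median of 172 to 800, and their Sox2BiD scores from 69.3 over 257 to 922. The strongest were intronic. The region at chr7:115668556-115670354 scored 542 in native Sox2 and 922 in Sox2BiD, that at chr7:115562923-115565566 scored 800 and 767, and that at chr7:115721214-115722959 scored 716 and 629. CATTGT lay at the summit of 8 of the 21 and the AP-1 word at 1.

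Other genes with many regions were long. Dlg2, a synaptic scaffold, and Pde4d, a phosphodiesterase, had 16 each. Ntm, a cell adhesion protein of neurons, and Pde4b had 14 each. Celf2, an RNA-binding protein, Exoc4, a subunit of the exocyst, and Magi2, a scaffold, had 13 each. Their windows spanned 0.645 to 1.62 Mb, and per Mb they had 9.88 (Pde4d) to 20.2 (Exoc4) regions, all fewer than Sox6. Genes with short windows reached like densities with few regions, as did Rpl7, a ribosomal protein gene, with 7 regions and 34.55 per Mb, and Rpl4, another, with 6 and 29.45 per Mb. Most regions of the long genes lay within the genes, from 9 of 14 in Ntm to 13 of 13 in Exoc4.

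The gene lists below were fixed with earlier results of these data known, and their counts carry no test. Of 19 Sox genes 14 had a region near, 11.9 per Mb in all, with 56 regions of which Sox6 held 21. This was the highest density of the lists, but the first place rested on Sox6. Without it the other 35 regions came to 8.64 per Mb. With their own top genes left out alike, the Wnt list had 9.05, fibroblast matrix 8.50 and axon guidance 8.49. Sox30 had 6, Sox21 and Sox7 5 each. Sox21, a SoxB2 factor that represses transcription, had a region 126 bp from its start site, with scores of 81.4 and 244, and one 24.9 kb away with scores of 796 and 852 in native Sox2 and Sox2BiD. Of 48 Wnt pathway genes 42 had one (87.5%, 74.7 to 95.3), at 9.34 per Mb, led by the ligand Wnt3a with 5 and the secreted inhibitors Dkk1, Dkk2 and Dkk3 with 4 each. Of 39 axon guidance genes 33 had one, at 9.04 per Mb, led by Sema5a with 10, the receptor Robo2 with 9 and its ligand Slit2 with 8. Of 30 fibroblast matrix genes 24 had one, at 9.17 per Mb, led by the microfibril gene Fbn2 with 8 and by Lox, which crosslinks collagen, with 5. In the Tead and Hippo list 18 of 21 had one, at 8.66 per Mb, led by Sav1 and Stk3 with 6 each. The list of ribosomal protein genes, kept as a contrast, had 22 of 35 and 7.71 per Mb, so a density slightly over that of all genes was also found for genes used by every cell.

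Lists closer to the average were the TGF-beta and BMP pathway, with 25 of 38 genes and 7.76 per Mb, the mesenchymal transcription factors, with 15 of 23 and 6.94, SWI/SNF subunits, with 22 of 28 and 6.75, and the Notch pathway, with 15 of 24 and 6.11. Acvr2a, an activin receptor, had 6 regions, the BMP receptors Bmpr1b and Bmpr2 and the activin-binding Fst 5 each, and Maml2, a Notch coactivator, 7. Zeb1, which represses epithelial genes, had 5, and Twist1 and Runx2 had 4 each. Neural lineage transcription factors had 26 of 40 genes and 5.96 per Mb, with 7 regions for Meis2. Epithelial genes had 15 of 24 and 5.49, where Krt8 and Krt18 are neighbours and shared the same 3 regions. Pluripotency genes had 20 of 30 and 5.29 per Mb, a density under that of all genes, and none of these genes had more than the 3 of Tet1 or of Zfp42. The AP-1 family was the sparsest, with 8 of 17 genes and 2.29 per Mb, and had at most 1 region per gene. The one nearest Fos, 62631 bp from its start site, was strong, with scores of 590 and 1348 in native Sox2 and Sox2BiD.

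Of 11 genes picked from those that the study's text names, 8 had a region within 100 kb (72.7%, 39.0 to 94.0). The share of all protein-coding genes was 64.4%. The 12 regions in all came to 4.84 per Mb, a density under the 6.46 of all genes. Klf4, which encodes a reprogramming factor, had a pair on either side. The region at chr4:55509849-55511108, 21.3 kb from the start site, scored 374 in native Sox2 and 695 in Sox2BiD, with 48 and 73 tags, and is the one whose CCATTGTT is printed above. The region at chr4:55545796-55547851, at 14.8 kb, scored 287 and 344 and held CATTGT. Near Sox2 itself the region at chr3:34558543-34560987, 90.2 kb upstream and within 2 kb of the start site of another annotated transcript, scored 539 and 702 and held CCATTGTT. The region at chr3:34575549-34576745 scored 159 and 286 and held neither 6-letter word. Near Thbd, which encodes thrombomodulin, both regions held CATTGT, and they scored 285 and 591, and 459 and 582. The pair near Olig3 leaned in opposite ways, with scores of 282 and 860 at chr10:19282447-19284427 and of 492 and 190 at chr10:19373195-19374467 in native Sox2 and Sox2BiD. Sox15 had 1 region, at chr11:69663491-69664823 with scores of 162 and 360, and it held both the SOX core and the AP-1 word. Dab2, Foxb1 and Sall4 had 1 region each, that of Sall4 being weak in both libraries, with scores of 93.4 and 73.3. Dppa5a, Esrrb and Mir302a had none.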

How the data were processed

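Flag CUT&Tag peak lists of 8 libraries were used. Trimming with Trim Galore 0.6.4, mapping to mm10 by Bowtie2 2.4.5, filtering with SAMtools 1.16.1 and peak calling by MACS 1.4.2, without a named control library, were the work of the authors, per the labels and the study's methods. The deposited peak score is 10 times the negative log10 of the caller's p-value, with a lowest value of 50. The deposited summit signal is the height in whole tags, not scaled to depth. Both scores and peak numbers go up with depth, and discarded repetitive reads leave repeats with fewer peaks.

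Peaks overlapping by 1 bp or more were joined. Words were sought on both strands of GRCm38 within 50 bp of the highest summit, and positions taken from GENCODE M21, leaving out 3 regions off the placed chromosomes. The members and lists were chosen with earlier results of these data known. Named genes were those nearest the 10 highest-ranked regions, the 10 with most regions, up to 4 per list and 11 picked from the study's text. Some genes that this rule names are not reported here. Shares have exact (Clopper-Pearson) 95% intervals, and ratios 95% intervals on the log scale. No test over samples was possible. The code was tested on simulated peaks. Python 3.11.15, NumPy 2.4.6, pandas 2.3.3, SciPy 1.17.1 and matplotlib 3.10.9 were used.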

Additional observations from a re-analysis of the deposited data

How the results depend on the processing

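The ratios of the Sox2-only to the other regions of both Sox2 libraries kept their side of 1, with intervals that excluded 1, under all alternatives run: 1.26 to 1.94 over 16 for CCATTGTT, 0.604 to 0.802 over 15 for the AP-1 word and 0.191 to 0.451 over 13 for promoters. Levels moved more. The number of regions was 11804 when both Sox2 lists were limited to scores of at least 100, and between 20626 and 22425 when 1 of the other 6 libraries was left out. Joining summits within 100 bp gave a promoter share of 10.7%, at which the difference from the 10.7% of bases was lost, and an AP-1 share of 8.35%, and joining peaks up to 500 bp apart a promoter share of 8.09%. A score of at least 100 in all lists gave an AP-1 share of 8.38%. The 50000 highest-scoring peaks of each list gave 9.30% for promoters, 3.39% for CCATTGTT and 8.69% for AP-1. Windows of 25 bp gave 1.46% and 4.04% for the CCATTGTT and AP-1 words, and of 100 bp 4.89% and 14.0%. The native Sox2 summit gave 2.58% for CCATTGTT, and CATTGT in its place 24.8%. A promoter distance of 500 bp gave 2.34%, and protein-coding start sites alone 4.78%. With 1 of the other 6 libraries left out the shares ran from 8.41% to 8.80% for promoters, 2.92% to 3.01% for CCATTGTT and 7.79% to 8.39% for AP-1, and the ratios from 1.44 to 1.55 for CCATTGTT, 0.709 to 0.802 for AP-1 and 0.387 to 0.422 for promoters. Within 50 kb, 10038 genes had a region. No paired analysis was possible because the labels carry no replicate numbers and each group holds 1 library. Without Sox6, an alternative chosen after seeing the data, the Sox genes had 8.64 regions per Mb. Counts of peaks were not set to a common depth.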
